A study of Homo sapiens with 40 samples.

Results

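The aryl hydrocarbon receptor (AHR), its partner ARNT, the repressor AHRR and 3 target genes, CYP1A1, CYP1B1 and TIPARP, were followed in MDA-MB-231 cells treated with 2 drugs of the mevalonate pathway. MDA-MB-231 is a human triple-negative breast cancer line. The 6 genes were chosen by symbol, with their differences between treated and control cells and between the drugs already known. Those differences are therefore given as a description, with no test. The platform annotation held their symbols on 6 of 33297 probe sets, and 5 of the 6 genes had a probe set of their own among 18417 genes that did. The sixth probe set was annotated to AHRR and also to PDCD6, a calcium-binding protein gene next to it, so it cannot be read as AHRR alone.

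RNA of whole cultures was read on 40 arrays, 4 replicates in each of 10 groups that differed in drug, dose, time and lot. Controls were mock-treated with solvent in the same serum-containing medium. Lot I comprised 3 groups at 12 h and 3 at 24 h, which were controls, cells given zoledronate at 30 µM and cells given fluvastatin at 2 µM. Lot II comprised 2 groups at 24 h, controls and zoledronate at 100 µM, and 2 at 48 h, controls and zoledronate at 30 µM. Fluvastatin is a statin, which inhibits HMG-CoA reductase, and zoledronate is a bisphosphonate, which inhibits farnesyl diphosphate synthase further along the pathway. Lot, day and set of arrays cannot be told apart between the lots. All groups come from 1 line. The labels call the replicates independent, and the design text states pairing by day, but neither says what else was separate. The spread between replicates may therefore in part be technical.

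AHR waits in the cytoplasm in a chaperone complex until a ligand binds, such as a polycyclic hydrocarbon, dioxin or a tryptophan metabolite. It then enters the nucleus, pairs with ARNT and binds DNA at dioxin response elements. CYP1A1 and CYP1B1 are its classic targets and encode cytochrome P450 enzymes that oxidise such hydrocarbons and oestrogens, with CYP1B1 widely expressed in tumours. AHRR, which competes for ARNT, and TIPARP, which ADP-ribosylates AHR, are targets that act back on the receptor.

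The sequence of 250 bases before the annotated start was taken from RefSeq (GRCh38.p14) to show which of the genes carry the core of the element, GCGTG, close to the start. Of the 6 genes, 5 had an entry, and CYP1B1 had none. The core, sought on both strands, occurred in 32.2% of 35116 such windows, and the longer form TNGCGTG, which contains the core, in 4.5%. CYP1A1 (window chr15:74725529-74725778, minus strand) held 1 core at bases 57 to 53 before the start. TIPARP (chr3:156674340-156674589, plus strand) held 2, both on the opposite strand, at 208 to 204 and at 142 to 138. AHRR (chr5:321464-321713) held 1 at 30 to 26, in the longer form. AHR (chr7:17298402-17298651, plus strand) and ARNT (chr1:150876600-150876849) held 0, which says only that these letters are not in this window. A core in the window likewise says only that the letters are there, since binding was not measured. Below, 2 targets with the core and the receptor without it are shown 5′ to 3′, with each core, or its reverse complement CACGC, in capitals.
CYP1A1: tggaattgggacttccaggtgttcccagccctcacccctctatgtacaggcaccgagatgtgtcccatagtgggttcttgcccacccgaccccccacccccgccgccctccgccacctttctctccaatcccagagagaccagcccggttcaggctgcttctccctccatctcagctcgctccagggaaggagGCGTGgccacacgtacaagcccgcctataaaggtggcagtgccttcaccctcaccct
TIPARP: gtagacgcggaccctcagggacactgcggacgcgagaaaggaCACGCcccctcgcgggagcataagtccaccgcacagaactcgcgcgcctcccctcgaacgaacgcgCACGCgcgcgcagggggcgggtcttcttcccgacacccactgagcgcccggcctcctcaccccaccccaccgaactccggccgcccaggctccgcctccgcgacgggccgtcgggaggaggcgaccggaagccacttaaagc
AHR: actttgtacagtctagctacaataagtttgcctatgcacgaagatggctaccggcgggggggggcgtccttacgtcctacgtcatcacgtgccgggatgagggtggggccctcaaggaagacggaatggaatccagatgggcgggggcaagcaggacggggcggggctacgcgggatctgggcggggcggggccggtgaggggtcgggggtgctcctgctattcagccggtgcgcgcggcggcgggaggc
The genes themselves lie at chr7:17298652-17346147 (AHR), chr1:150809713-150876599 (ARNT), chr5:321714-438285 (AHRR), chr3:156674590-156706770 (TIPARP), chr15:74719542-74725528 (CYP1A1) and chr2:38067509-38076151 (CYP1B1).

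Values are log2 signals summarised per probe set, so a difference of 1 is a fold of 2. They ranged from 1.2 to 14.52 over the table, and the median of an array from 6.19 to 6.33. Markers of the line read high on every array, vimentin (VIM) from 11.76 to 12.48 and CD44 from 10.84 to 11.49. Of the luminal markers, the oestrogen receptor gene ESR1 read 4.45 to 5.33, PGR 4.21 to 5.0, CDH1 4.41 to 5.18 and GATA3, near the array medians, 5.93 to 6.85. Of 4 endothelial and fibroblast markers 4 were measured, and their summed level (log2 of the summed linear signals) was 7.27 to 7.36 in lot I controls at 24 h, 7.55 to 7.98 with fluvastatin at 24 h, 7.29 to 7.34 in lot II controls at 24 h and 7.77 to 7.88 with 100 µM zoledronate. Of these markers the endothelial gene PECAM1 averaged 5.59 ± 0.14 and 6.57 ± 0.46 (SD, n = 4) in the first pair of groups and 5.53 ± 0.23 and 6.83 ± 0.09 in the second. Of 4 blood markers 3 were measured, with sums of 6.59 to 6.74, 6.84 to 7.33, 6.48 to 6.81 and 6.69 to 7.09 in the same order. CD14, the brightest of these, averaged 6.0 ± 0.11 and 6.52 ± 0.31, then 5.98 ± 0.32 and 6.4 ± 0.24. Over all 40 arrays PECAM1 reached 7.25 and CD14 6.97, and COL3A1 read 5.76 to 6.28. PTPRC (3.07 to 3.83), CD3E (4.2 to 5.03), LUM (2.68 to 3.59) and CDH5 (4.91 to 5.42) stayed below every array's median. The part of these lists in the results below was not tested. No detection call goes with the values.

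CYP1B1 was 1.69-fold and 1.73-fold higher with fluvastatin at 12 h and at 24 h and 1.83-fold higher with 100 µM zoledronate, and differed by 0.04 to 0.13 on the log2 scale with 30 µM zoledronate. CYP1A1 was higher than its control mainly with fluvastatin at 24 h, by 1.57-fold. Its fluvastatin mean was 6.73 at 12 h and 6.64 at 24 h, and its control mean 6.43 and 5.98. AHR and ARNT were higher with 100 µM zoledronate, by 1.39-fold and 1.43-fold, and by less with fluvastatin at 24 h. The probe set of AHRR and PDCD6 differed by at most 0.14 in any comparison. Over the 6 probe sets the median difference from control was −0.02, 0.06 and 0.15 with 30 µM zoledronate at 12, 24 and 48 h, 0.09 and 0.29 with fluvastatin at 12 and 24 h, and 0.38 with 100 µM zoledronate. The median over all 18417 genes lay between −0.01 and 0.01 in each.

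The 4 treated values stood wholly above the 4 control values for 1 member with fluvastatin at 12 h, 2 with fluvastatin at 24 h and 2 with 100 µM zoledronate, and for 0 with 30 µM zoledronate at 12, 24 and 48 h. Groups without overlap, in either direction, made up 4.46%, 8.41% and 33% of all genes in the first 3 of these comparisons and 0.804%, 1.79% and 8.27% in the others. Members higher in 4 of 4 pairs, a pair being a treated and a control array of one lot, time and replicate number, numbered 3 and 4 of 6 with fluvastatin at 12 and 24 h and 6 of 6 with 100 µM zoledronate. With 30 µM zoledronate they numbered 0, 0 and 1, the last being ARNT at 48 h. Of all genes 11.4%, 17.8% and 22.4% were higher in 4 of 4 pairs in the first 3 comparisons and 5.49%, 8.45% and 11.7% with 30 µM zoledronate. Because these values chose the genes, nothing is read from the counts. In bulk RNA, fewer cells carrying a transcript and less of it per cell cannot be told apart.

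**Figure D1:**
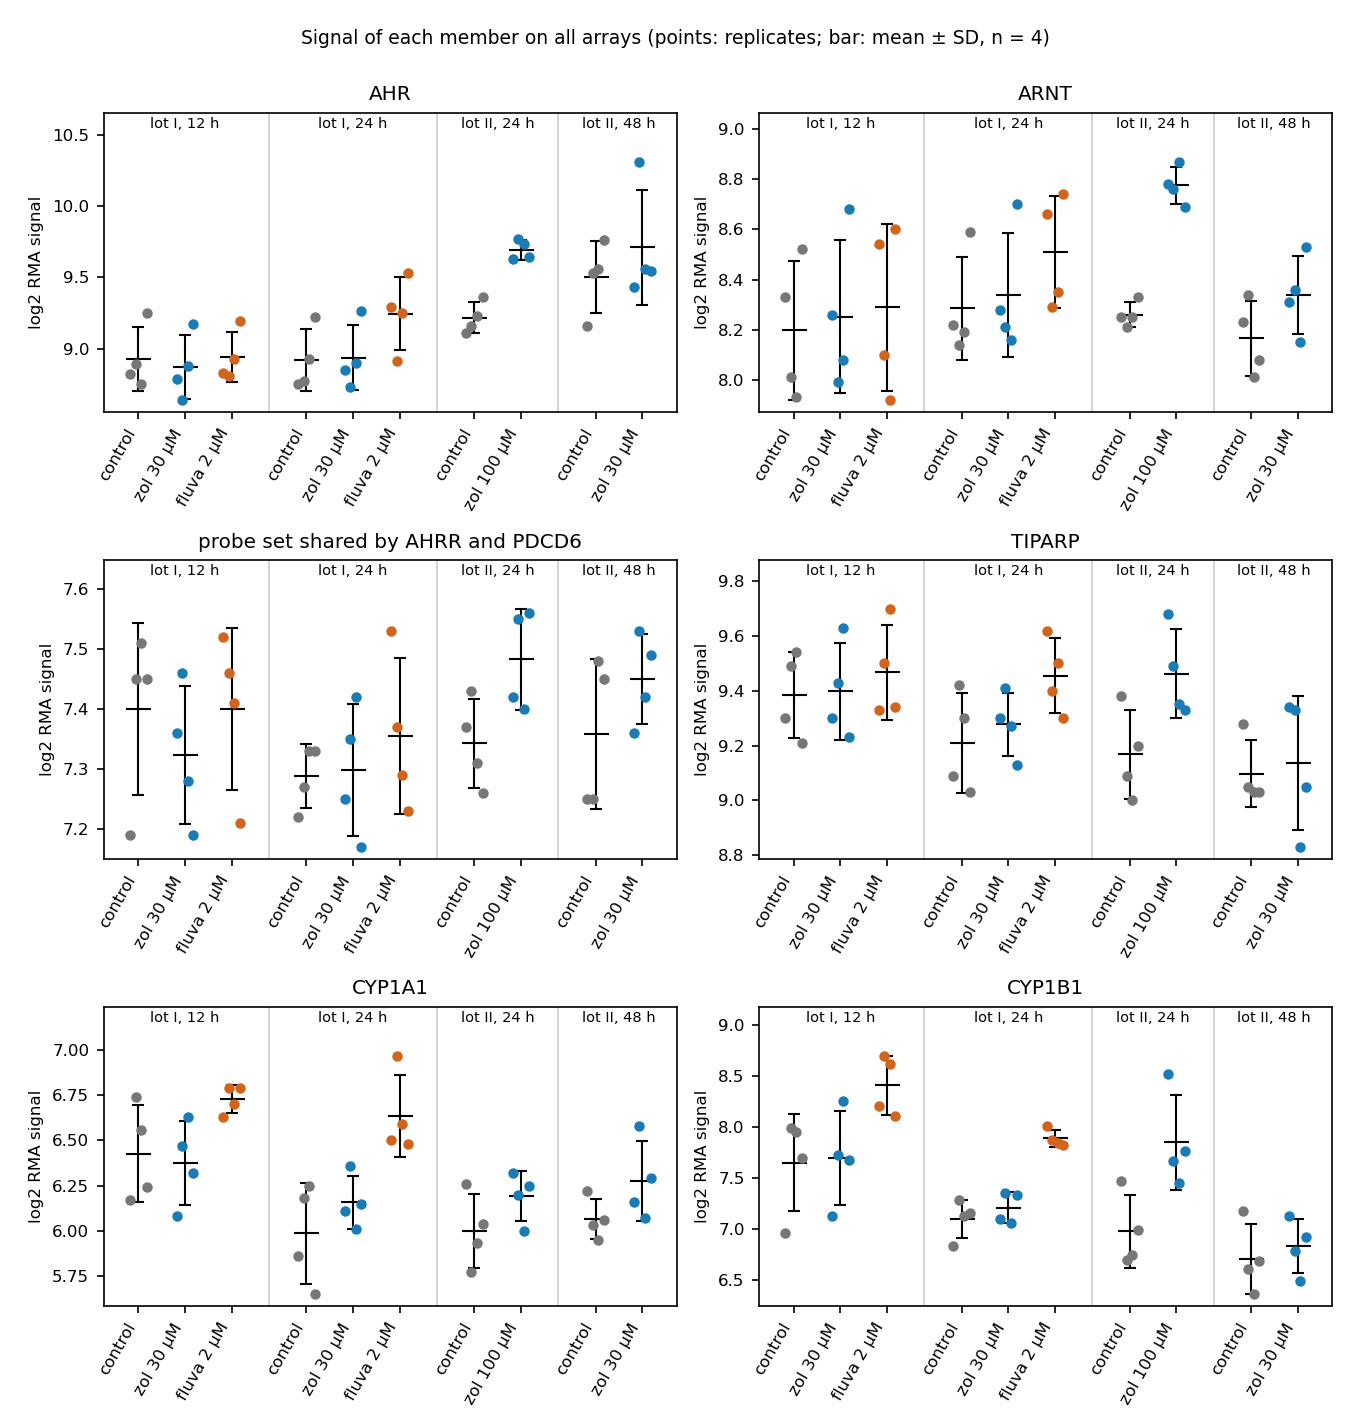
Log2 signal of the 6 member probe sets on all 40 arrays, by lot, time and treatment (grey control, blue zoledronate, orange fluvastatin), with the mean and SD of 4 replicates; each panel has its own axis, which does not start at 0. CYP1B1 with fluvastatin at 24 h sits between 7.82 and 8.01, above all its controls (6.83 to 7.28), and ARNT with 100 µM zoledronate between 8.69 and 8.87, above all of its own (8.21 to 8.33).

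Differences below are treated minus control, as the mean of 4 pairs ± SD. AHR, the receptor itself, read 8.75, 8.77, 8.93 and 9.22 in the lot I controls at 24 h (replicates 1 to 4). In the fluvastatin cells of that time it read 9.29, 8.91, 9.25 and 9.53. The groups overlapped, since replicate 4 of the controls was above replicate 2 of the treated cells, yet each treated array was above its own control, by 0.33 ± 0.16. At 12 h fluvastatin cells did not stand apart, with a difference of 0.01 ± 0.12 and 2 of 4 pairs higher.

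In lot II, control AHR read 9.11, 9.16, 9.23 and 9.36 at 24 h. The 100 µM zoledronate cells read 9.63, 9.77, 9.73 and 9.64. These groups did not overlap, and the difference was 0.48 ± 0.14. With 30 µM zoledronate AHR differed by −0.05 ± 0.16 at 12 h and 0.02 ± 0.06 at 24 h.

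At 48 h with 30 µM zoledronate 1 array decided the AHR value. Controls read 9.16, 9.53, 9.56 and 9.76, and treated cells 9.43, 10.31, 9.56 and 9.54. Replicate 2 was above its control by 0.78, whereas replicate 4 had a pair difference of −0.22. The mean difference of 0.21 ± 0.43 was 0.02 without replicate 2.

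ARNT, the shared partner that AHR needs in order to bind DNA, read 8.25, 8.21, 8.25 and 8.33 in lot II controls at 24 h. Cells given 100 µM zoledronate read 8.78, 8.76, 8.87 and 8.69. The groups were separate, with a difference of 0.52 ± 0.11, larger than any other ARNT difference here. In fluvastatin cells at 24 h ARNT read 8.66, 8.29, 8.35 and 8.74 against controls at 8.22, 8.14, 8.19 and 8.59. Those groups overlapped, but the treated array was higher in 4 of 4 pairs, by 0.23 ± 0.14 (0.15 without replicate 1), and the same replicates, 1 and 4, were the higher ones in both groups. The remaining ARNT differences were 0.10 ± 0.09 (fluvastatin, 12 h), and 0.06 ± 0.12, 0.06 ± 0.06 and 0.17 ± 0.19 with 30 µM zoledronate at 12, 24 and 48 h. The 48 h value was 0.08 without replicate 4.

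TIPARP, a mono-ADP-ribosyltransferase that marks AHR for breakdown, had differences of at most 0.29. In 100 µM zoledronate cells it read 9.68, 9.49, 9.35 and 9.33 against controls at 9.38, 9.09, 9.0 and 9.20. Replicate 1 of the controls lay within the treated range, while every pair was higher, by 0.29 ± 0.12. After 24 h of fluvastatin it read 9.62, 9.40, 9.5 and 9.30 against 9.09, 9.42, 9.30 and 9.03, and 3 of 4 pairs were higher, by 0.25 ± 0.23. Without replicate 1 that difference was 0.15. Differences were 0.08 ± 0.07 with fluvastatin at 12 h and between 0.01 and 0.07 with 30 µM zoledronate at 12, 24 and 48 h.

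The probe set shared by AHRR and PDCD6 stayed within 7.17 and 7.56 on all 40 arrays. Its highest difference was 0.14 ± 0.12 with 100 µM zoledronate (0.08 without replicate 4) and its lowest −0.08 ± 0.20 with 30 µM zoledronate at 12 h. The first was larger than the SD of its pairs and the second smaller, and neither was assigned to AHRR.

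CYP1B1, which hydroxylates oestradiol and polycyclic hydrocarbons, read 6.96, 7.99, 7.95 and 7.69 in lot I controls at 12 h. With fluvastatin it read 8.2, 8.69, 8.62 and 8.11. Every treated array was above every control, by 0.76 ± 0.34 over the pairs. Replicate 1 had the lowest control and the widest gap, 1.24, and without it the mean was 0.60.

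At 24 h the CYP1B1 controls read 6.83, 7.28, 7.12 and 7.15, and fluvastatin cells 8.01, 7.87, 7.84 and 7.82. The groups were again separate, with a difference of 0.79 ± 0.26, a fold of 1.73. The control mean was 7.65 at 12 h and 7.09 at 24 h, and the fluvastatin mean 8.41 and 7.89.

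With 100 µM zoledronate CYP1B1 read 8.52, 7.66, 7.45 and 7.76 against controls at 7.47, 6.69, 6.74 and 6.99. Replicate 1 was the highest of both groups, and its control (7.47) just passed the lowest treated array (7.45). Within pairs the difference was 0.87 ± 0.16 and narrow, from 0.71 to 1.05. Over all genes, however, same-numbered arrays of these groups deviated little together (r from −0.09 to 0.26).

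With 30 µM zoledronate CYP1B1 read 7.12, 7.72, 8.25 and 7.67 at 12 h and 7.09, 7.35, 7.06 and 7.33 at 24 h. At 48 h it read 7.12, 6.78, 6.49 and 6.92 against controls at 7.17, 6.6, 6.36 and 6.68. All 3 comparisons overlapped, with differences of 0.04 ± 0.25, 0.11 ± 0.14 and 0.13 ± 0.12.

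CYP1A1, whose induction is the usual readout of AHR activity, read 5.86, 6.18, 6.25 and 5.65 in lot I controls at 24 h. With fluvastatin it read 6.50, 6.97, 6.59 and 6.48. No value overlapped, and the difference was 0.65 ± 0.22. All these signals lie near the array medians, and without a detection call it is not known how much of them is background.

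At 12 h CYP1A1 read 6.63, 6.79, 6.70 and 6.79 with fluvastatin against 6.17, 6.74, 6.56 and 6.24. The 4 pairs were higher by 0.30 ± 0.24, mostly through replicates 1 and 4 (0.46 and 0.55), and the groups overlapped. In 100 µM zoledronate cells CYP1A1 read 6.32, 6.2, 6.0 and 6.25 against 6.26, 5.77, 5.93 and 6.04. That difference, 0.20 ± 0.17, was higher in 4 of 4 pairs with overlapping groups, by only 0.07 in 2 of them, and it was 0.12 without replicate 2.

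With 30 µM zoledronate the CYP1A1 difference was −0.05 ± 0.17 at 12 h, 0.17 ± 0.31 at 24 h and 0.21 ± 0.25 at 48 h. At 24 h replicate 4 (0.50) and replicate 3 (−0.24) went opposite ways, and the mean ran from 0.06 without the former to 0.31 without the latter. At 48 h replicate 2 contributed 0.54, and without it the mean was 0.09.

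**Figure D2:**
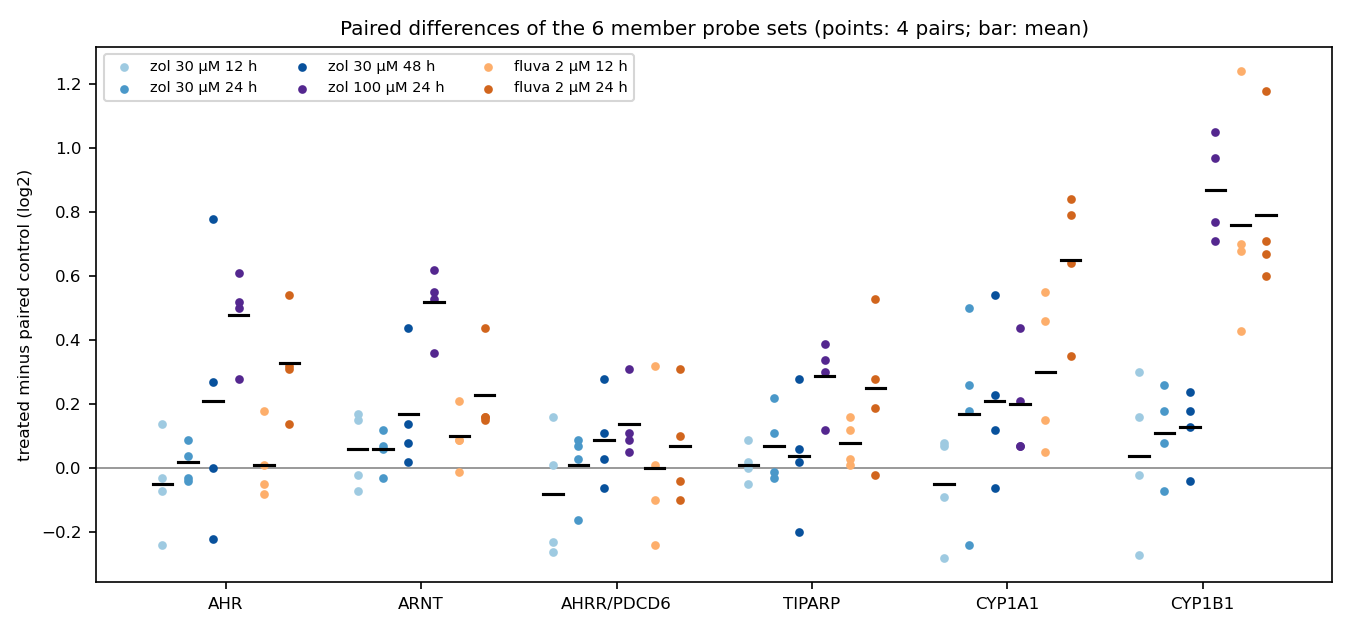
Treated minus paired control (log2) for each member probe set, with 4 pairs as points and their mean as a bar, for the 6 treated groups. CYP1B1 shows 3 groups with all pairs between 0.43 and 1.24 (both fluvastatin times and 100 µM zoledronate), and the 30 µM zoledronate groups between −0.27 and 0.30.

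In lot I the drugs were applied side by side, and fluvastatin minus zoledronate was highest for CYP1B1 and next for CYP1A1 at both times. At 24 h CYP1B1 was higher with fluvastatin by 0.68 ± 0.21 and CYP1A1 by 0.48 ± 0.14, and both genes had separate groups. AHR differed by 0.31 ± 0.11, ARNT by 0.17 ± 0.15 (0.10 without replicate 1) and TIPARP by 0.17 ± 0.14, with overlap. At 12 h CYP1B1 differed by 0.72 ± 0.36 and CYP1A1 by 0.36 ± 0.21, while AHR, ARNT and TIPARP lay between 0.04 and 0.07. Separate groups were held by 0 members at 12 h and 2 at 24 h, against 3.87% and 6.7% of all genes. Of 6 members 5 and 4 were higher in all pairs at these times, as were 10.4% and 16.1% of all genes. These contrasts and those with the controls share the fluvastatin arrays.

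Side by side, the CYP1A1 and CYP1B1 differences were 0.65 and 0.79 with fluvastatin at 24 h, and 0.20 (0.12 without replicate 2) and 0.87 with 100 µM zoledronate. Over the 24 pairs their Pearson r was 0.51, and 0.63 over the 20 pairs without 100 µM zoledronate. AHR and TIPARP had r = 0.81 (0.74 without those pairs). AHR and ARNT had r = 0.48, which was 0.09 without the 100 µM pairs. CYP1B1 had r = 0.62 with ARNT and 0.61 with TIPARP (0.50 and 0.52 without the 100 µM pairs). AHR had r = 0.39 with CYP1A1 and 0.52 with CYP1B1 (0.52 and 0.35 without them). The points share treatments, and in lot I the pairs of both drugs share control arrays, so these are descriptions.

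**Figure D3:**
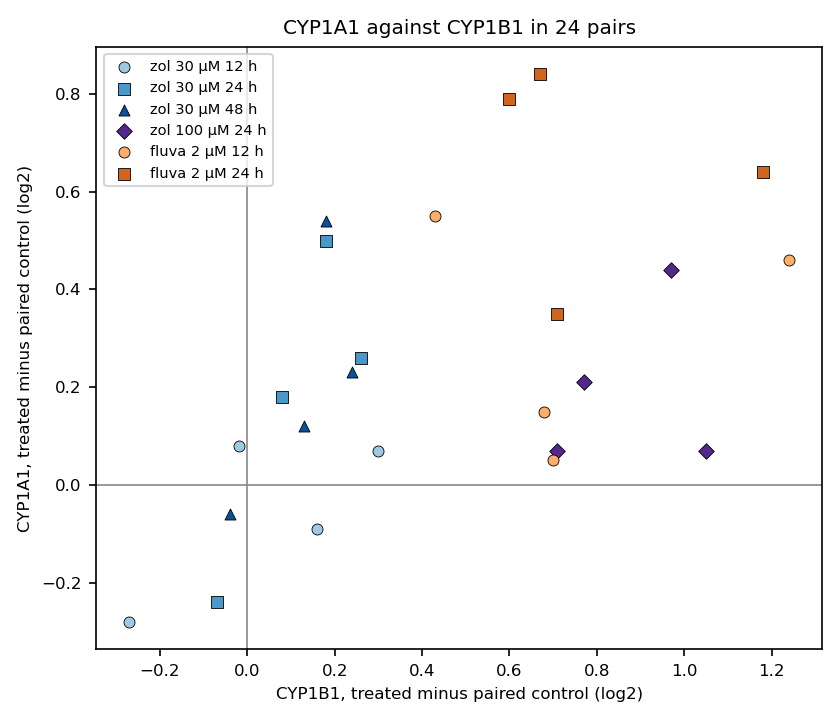
CYP1A1 against CYP1B1, each as treated minus paired control (log2), in 24 pairs of 6 treated groups. The 100 µM zoledronate pairs reach CYP1B1 differences of 0.71 to 1.05 with CYP1A1 at 0.07 to 0.44, below 3 of the 4 fluvastatin 24 h pairs, which lie at 0.64 to 0.84.

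Between control groups the members are described too, with no test, since every control array entered the differences that chose the genes. Differences here are means ± SE from a limma fit of 10 group means. From 12 to 24 h in lot I, CYP1A1 differed by −0.44 ± 0.14 and CYP1B1 by −0.55 ± 0.22. TIPARP differed by −0.18 ± 0.12, ARNT by 0.09 ± 0.15 and AHR by −0.01 ± 0.16. At these times the fluvastatin means were 6.73 and 6.64 for CYP1A1, and 8.41 and 7.89 for CYP1B1. Fluvastatin differences from control were 0.30 and 0.65 for CYP1A1, but 0.76 and 0.79 for CYP1B1. The part of the lower 24 h controls in these differences was not tested.

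From 24 to 48 h in lot II, AHR differed by 0.29 ± 0.16 and CYP1B1 by −0.27 ± 0.22. Between lots at 24 h, AHR was 0.29 ± 0.16 higher in lot II and CYP1B1 differed by −0.12 ± 0.22. ARNT, CYP1A1 and TIPARP lay between −0.09 and 0.07 in these contrasts, each smaller than its SE of 0.12 to 0.15.

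Ranked by group mean, CYP1B1 was highest with fluvastatin at 12 h (8.41 ± 0.29, SD, n = 4), which did not overlap the next group, fluvastatin at 24 h (7.89 ± 0.09). Then came 100 µM zoledronate (7.85 ± 0.47), and the lowest was the lot II control at 48 h (6.70 ± 0.34). The other 8 of its 9 neighbouring pairs of groups overlapped. CYP1A1 ran from 6.73 ± 0.08 with fluvastatin at 12 h to 5.98 ± 0.28 in the lot I control at 24 h, and all 9 neighbouring pairs overlapped. AHR ran from 9.71 ± 0.40 (30 µM zoledronate, 48 h) to 8.87 ± 0.22 (30 µM zoledronate, 12 h), with the 5 highest groups including every lot II group. ARNT was highest with 100 µM zoledronate (8.78 ± 0.07) and lowest in the lot II control at 48 h (8.17 ± 0.15), and TIPARP ran from 9.47 ± 0.18 (fluvastatin, 12 h) to 9.10 ± 0.12 (lot II control, 48 h). In AHR, ARNT and TIPARP all 9 neighbouring pairs overlapped as well.

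The other genes of the pathway were read from 6 lists with 44 entries, of which 38 had a probe set of their own. They were tested with limma over all genes, with lot, time and replicate number as a block (Benjamini-Hochberg over 18417 genes, two-sided, threshold 0.05), and differences are ± SE. The lists, too, were put together with results of these data known, so their counts are no independent evidence of a direction. With fluvastatin at 24 h 10 rose and 1 fell, where 6.71% of all genes rose and 3.77% fell. With 100 µM zoledronate 12 rose and 7 fell, where the shares were 15.3% and 16.6%. With 30 µM zoledronate at 48 h 1 rose and 0 fell, against 3.16% and 4.43%, and with fluvastatin at 12 h 1 rose and 0 fell, against 0.348% and 0.527%. With 30 µM zoledronate at 12 and 24 h limma called 0 of the 38 and 0% of all genes, although 1 and 2 list genes, and 511 and 866 of all genes, had an unadjusted p under 0.05.

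Among partners and paralogs of ARNT, 2 of 7 rose with fluvastatin at 24 h. HIF1A, a hypoxia-inducible factor that also dimerises with ARNT, rose by 0.68 ± 0.07 (limma adjusted p = 4.7e-06), and its relative EPAS1 by 1.05 ± 0.15 (adjusted p = 0.00018). With 100 µM zoledronate HIF1A rose by 0.41 ± 0.07 (adjusted p = 3e-05) and EPAS1 by 1.51 ± 0.15 (adjusted p = 5.3e-08). ARNT2, the paralog of ARNT, went the other way from ARNT there and fell by 0.53 ± 0.09 (adjusted p = 4e-05). These calls passed with each replicate left out and without the block. At 12 h with fluvastatin HIF1A rose by 0.36 ± 0.07 (adjusted p = 0.013), a call lost without any 1 replicate (adjusted p from 0.051 to 0.14) and without the block (0.40).

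The chaperones that hold AHR in the cytoplasm fell in 3 of 3 measured with 100 µM zoledronate. HSP90AB1 fell by 0.28 ± 0.06 (limma adjusted p = 0.00031), the co-chaperone PTGES3 by 0.28 ± 0.07 (adjusted p = 0.0042) and HSP90AA1 by 0.21 ± 0.07 (adjusted p = 0.032). The HSP90AA1 call was lost without any 1 replicate (adjusted p from 0.053 to 0.12) and without the block (0.055). Of these 3, 0 passed with fluvastatin at 24 h. Coactivators rose in 3 of 4 with 100 µM zoledronate, NCOA2 by 0.58 ± 0.09 (adjusted p = 1.5e-05), NCOA1 by 0.41 ± 0.09 (adjusted p = 0.00075) and EP300 by 0.22 ± 0.08 (adjusted p = 0.036, 0.061 to 0.14 without each replicate and 0.44 without the block). Fluvastatin at 24 h gave 2 of 4 higher, NCOA2 by 0.28 ± 0.09 (adjusted p = 0.041) and EP300 by 0.27 ± 0.08 (adjusted p = 0.028), both lost without replicate 1, 3 or 4 (adjusted p from 0.11 to 0.29) and without the block (0.30 and 0.45).

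Of 13 other target genes of AHR, each also under other regulators, 5 rose and 1 fell with fluvastatin at 24 h. NQO1, a quinone reductase, rose by 0.45 ± 0.09 (limma adjusted p = 0.0022), the transcriptional repressor HES1 by 0.44 ± 0.09 (adjusted p = 0.0042) and PTGS2, the inducible cyclooxygenase, by 0.95 ± 0.21 (adjusted p = 0.0059). ALDH3A1, an aldehyde dehydrogenase, rose by 0.32 ± 0.09 (adjusted p = 0.031) and EREG, a ligand of the EGF receptor, by 0.59 ± 0.14 (adjusted p = 0.0077). SLC7A5, a transporter of tryptophan and other large amino acids, fell by 0.42 ± 0.12 (adjusted p = 0.03). Each of these 6 calls was lost in at least 1 fit that left out a replicate number. Such a fit drops that number from all 10 groups. Whether a loss came from that replicate or from fewer arrays was not tested. Without replicate 1 the adjusted p was 0.065 for NQO1, 0.078 for HES1, 0.25 for ALDH3A1, 0.13 for EREG and 0.41 for SLC7A5, and without replicate 3 it was 0.064 for PTGS2, 0.057 for HES1, 0.14 for ALDH3A1, 0.062 for EREG and 0.11 for SLC7A5. ALDH3A1 was also lost without replicate 2 (0.059) and SLC7A5 without replicate 4 (0.084). Without the block EREG passed (0.029) and the other 5 did not, at 0.095 to 0.25.

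Of the same 13, 4 rose and 2 fell with 100 µM zoledronate. SLC7A5 fell by 1.29 ± 0.12 (limma adjusted p = 2.3e-08). EREG rose by 0.81 ± 0.14 (adjusted p = 5.9e-05), PTGS2 by 0.81 ± 0.21 (adjusted p = 0.0042, and 0.15 without the block), ALDH3A1 by 0.41 ± 0.09 (adjusted p = 0.0011) and NQO1 by 0.34 ± 0.09 (adjusted p = 0.0038, and 0.054 without replicate 3 and 0.16 without the block). FLG, the skin barrier protein filaggrin, fell by 0.34 ± 0.12 (adjusted p = 0.04, 0.31, 0.18 and 0.066 without replicates 1, 2 and 3, and 0.11 without the block). CYP1A2, the liver-type neighbour of CYP1A1, lay at −0.05 ± 0.11 with fluvastatin at 24 h (adjusted p = 0.83) and 0.00 ± 0.11 with 100 µM zoledronate (adjusted p = 0.99). At 48 h with 30 µM zoledronate HES1 was the 1 list gene that rose, by 0.42 ± 0.09 (adjusted p = 0.0069), a call lost without replicate 1 (0.11), without replicate 2 (0.096) and without the block (0.21).

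Of 7 enzymes that make or remove tryptophan-derived ligands 1 rose, KYNU, the kynureninase that breaks down kynurenine. It rose by 0.93 ± 0.16 with fluvastatin at 24 h (limma adjusted p = 0.00082) and by 1.21 ± 0.16 with 100 µM zoledronate (adjusted p = 2.2e-06), with each replicate left out and without the block. Group means of IDO1, IDO2, TDO2, TPH1 and KMO lay below every array's median. With fluvastatin at 24 h they ran from 3.3 (TDO2) to 4.55 (TPH1). Without a detection call, the lack of a call for these genes says little. Of 4 electron partners of the CYP1 enzymes, POR, the reductase that feeds all microsomal P450s, rose with 100 µM zoledronate by 0.31 ± 0.08 (adjusted p = 0.0042) and CYB5R3 by 0.34 ± 0.07 (adjusted p = 0.00045), while cytochrome b5 (CYB5A) fell by 0.47 ± 0.10 (adjusted p = 0.00048). Without the block CYB5R3 and CYB5A no longer passed, at 0.094 and 0.16. In fluvastatin cells at 24 h 0 of 4 passed, POR at 0.22 ± 0.08 (adjusted p = 0.077).

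**Figure D4:**
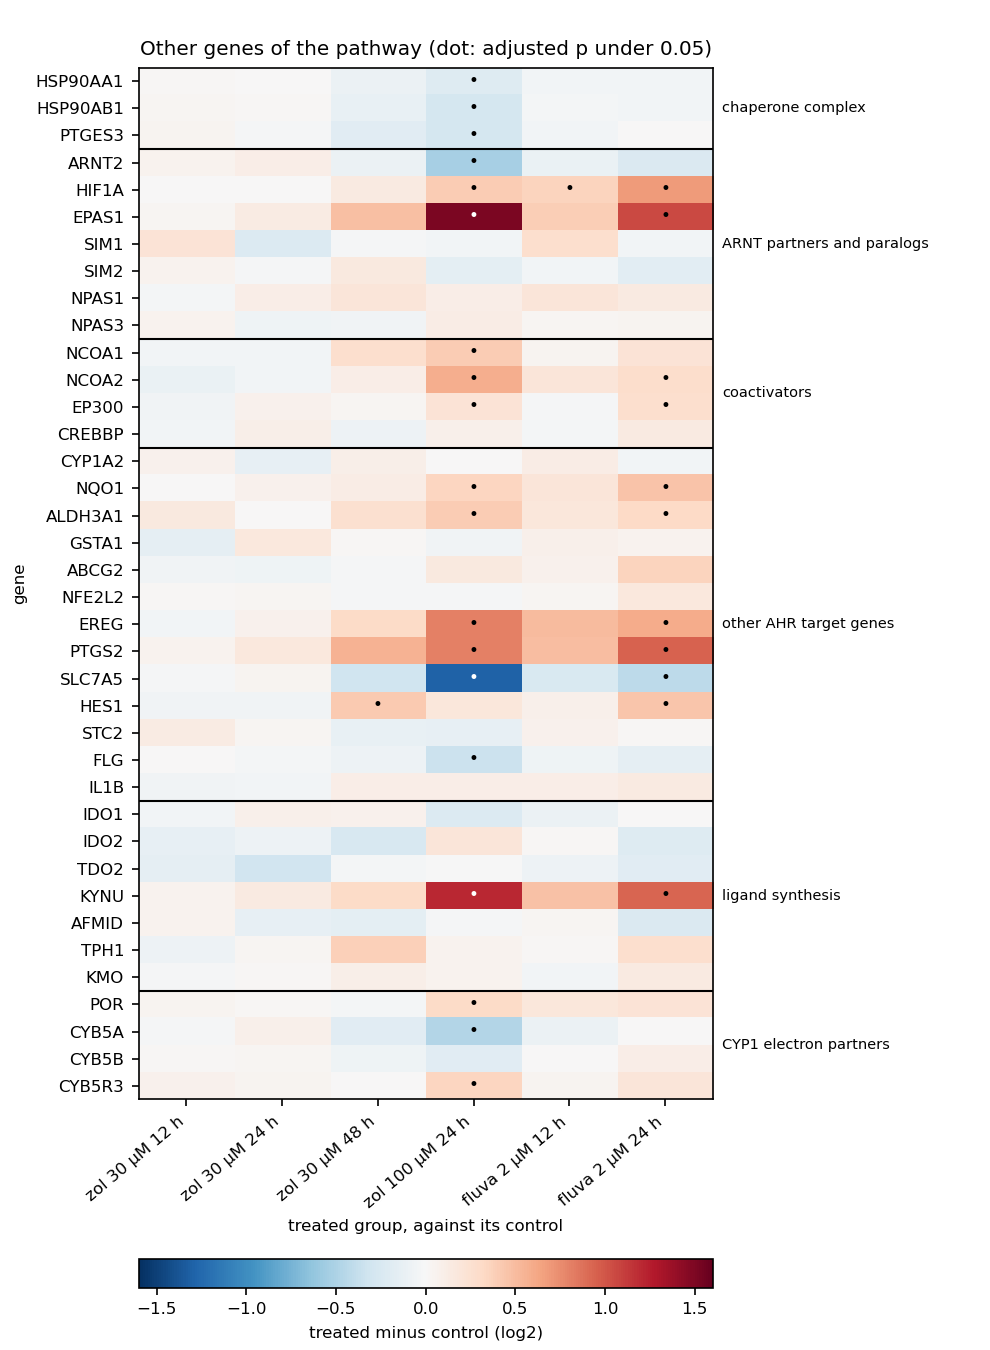
Treated minus control (log2, colour) of 38 genes in 6 lists for the 6 treated groups, with a dot where limma's adjusted p was under 0.05. Dots number 19 with 100 µM zoledronate and 11 with fluvastatin at 24 h, and EPAS1, KYNU and SLC7A5 carry the deepest colours.

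Between the drugs in lot I at 24 h, 9 list genes were higher with fluvastatin and 2 lower, against 4.3% and 2.93% of all genes. HIF1A differed by 0.66 ± 0.07 (limma adjusted p = 6.9e-06), EPAS1 by 0.92 ± 0.15 (adjusted p = 0.0011) and KYNU by 0.80 ± 0.16 (adjusted p = 0.0042), and these 3 passed with each replicate left out and without the block. HES1 (0.50 ± 0.09, adjusted p = 0.0029) was lost without replicate 1 (0.077) or the block (0.12), and NQO1 (0.38 ± 0.09, adjusted p = 0.01) without replicate 1 (0.20), replicate 3 (0.12) or the block (0.30). The other 6 calls, among them ARNT2 at −0.32 ± 0.09 (adjusted p = 0.025), were each lost without replicate 1 (adjusted p from 0.16 to 0.42), without replicate 3 (0.064 to 0.21) and without the block (0.083 to 0.39). At 12 h HIF1A was the 1 gene called, 0.35 ± 0.07 higher (adjusted p = 0.015, and 0.066 to 0.25 without each replicate), against 0.282% of all genes higher and 0.456% lower.

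The 3 genes whose paired differences were most like each member's, by Pearson r over 24 pairs, were CPT1A (0.88), STK17B (0.87) and PJA2 (0.86) for CYP1B1. For CYP1A1 they were KTN1 (0.71), ABCC2 (0.71) and RC3H1 (0.70), the weakest likeness of the 6. AHR was followed by CPD (0.95), NRP1 (0.94) and RBL2 (0.94), and TIPARP by AKAP13 (0.91), ACSF2 (0.90) and BAZ2B (0.89). ARNT was followed by GNE, DCAF6 and INPP5F (each 0.89), which without the 100 µM pairs were at 0.78, 0.85 and 0.76. The shared probe set was followed by C2orf81 (0.75), RAET1G (0.74) and ADSS1 (0.74). The treatments and, in lot I, the control arrays are common to these points.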

How the data were processed

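The authors deposited log2 signals per probe set made by RMA in Affymetrix Power Tools 1.10.2, per the submitters' processing notes, for 40 Human Gene 1.0 ST arrays. The genome build, and whether both lots were normalized together, is not given in the sources used here. Members and lists were chosen with earlier results of these data known. Of 33297 probe sets, 19460 had exactly 1 symbol in the platform annotation, 1754 several and 12083 none, and 19429 matched RefSeq (GRCh38.p14). For 769 genes with several, the probe set of highest mean was kept, leaving 18417 genes with no filter on dim ones.

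The main fit (limma 3.58.1, R 4.3.3, lmFit and eBayes) had 16 blocks and 6 treated effects over 40 arrays, with 18 residual degrees of freedom, and control groups were compared over 10 group means with 30 (tests of members planned there are not given, since the control arrays entered the choice of genes). Scripts were tested on simulated data. The design text states pairing by day. Same-numbered arrays deviated together in lot I (r from 0.17 to 0.60 between treated and control) but not throughout lot II (−0.30 to 0.55). With 100 µM zoledronate r ran from −0.09 to 0.26, and 1 of 4 pairs was over 0.1.

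Besides the 6 members, the text names the 6 list genes of smallest p among those past the threshold in each comparison, ARNT2, CYP1A2, NQO1, ALDH3A1 and POR in any case, and the 3 genes most like each member. Other list genes were chosen once their values had been seen. Alternatives were a fit with no block, a fit of the arrays compared alone, new quantile normalization, centring on array medians, leaving out dim genes (12278 stayed), the mean of probe sets, each replicate left out and, added after seeing the data, likeness without the 100 µM pairs.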

Additional observations from a re-analysis of the deposited data

Results flagged for a closer look

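In 60 groups of 4 arrays (6 probe sets in 10 groups), the highest or lowest value was set against the rest by Dixon's ratio of gap to range, and 2 passed its 95% critical value, where chance gives about 1 in 20 groups. AHR with 30 µM zoledronate at 48 h in lot II read 10.31 in replicate 2, against 9.43 to 9.56 in the other 3, with a ratio of 0.858. TIPARP in the lot II control at 48 h read 9.28 in replicate 1, against 9.03 to 9.05 in the other 3, with a ratio of 0.904.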

How the results depend on the processing

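Member differences were recomputed with quantile normalization anew, median centring, the mean of probe sets and each replicate left out. Of these values 335 moved by less than the SD of the pairs and 1 by more. Leaving out 1 of 4 pairs cannot move their mean by as much as that SD, so this count says nothing about single replicates. AHR with 30 µM zoledronate at 48 h, for example, went from 0.21 to 0.02 without replicate 2. TIPARP, fluvastatin minus zoledronate at 12 h, was 0.07 and became 0.11 with quantile normalization anew. Between controls, a block by replicate number left the lot I differences at −0.44 (CYP1A1) and −0.55 (CYP1B1), and it could not be fitted between the lots. The mean of probe sets changes no member, since each has 1.

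Counts of list genes depended on the replicate block more than on any other choice. Without it, fluvastatin gave 0 higher at 12 h (1 with it) and 4 higher and 0 lower at 24 h (10 and 1), 30 µM zoledronate at 48 h 0 higher (1), 100 µM zoledronate 4 lower (7), and fluvastatin minus zoledronate 0 higher at 12 h (1) and 3 higher and 0 lower at 24 h (9 and 2). Rises with 100 µM zoledronate were lost too without the block, those of EP300, NQO1, PTGS2 and CYB5R3. With dim genes left out (12278 stayed), fluvastatin gave 2 higher at 12 h and 2 lower at 24 h, 30 µM zoledronate at 48 h 3 higher, and fluvastatin minus zoledronate at 12 h 2 higher. With quantile normalization anew, the lower count for fluvastatin at 24 h was 2 and the higher count between the drugs at 12 h was 2. With only the arrays compared, 30 µM zoledronate at 48 h gave 0 higher, and fluvastatin minus zoledronate 2 higher at 12 h and 1 lower at 24 h. With each replicate left out, counts ran from 0 to 0 (fluvastatin higher, 12 h), 4 to 10 (higher, 24 h), 0 to 1 (lower, 24 h), 1 to 3 (30 µM zoledronate at 48 h, higher), 0 to 1 (lower), 5 to 6 (100 µM zoledronate, lower), 0 to 0 (fluvastatin minus zoledronate, higher, 12 h), 3 to 8 (higher, 24 h) and 0 to 2 (lower, 24 h). Of the 19 list genes called with 100 µM zoledronate, 12 were called in all 4 of these fits and without the block, and of the 11 with fluvastatin at 24 h, 3 were. The causes were not tested. Signal over background is unknown, which limits the genes near the array medians or below, such as CYP1A1, CYP1A2 and ALDH3A1.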
